A study of Mus musculus with 17 samples.

Results

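The genes described here are the mouse ion channel genes whose symbols begin with Kcn, Hcn, Cacn or Clcn, or with Scn followed by a digit. They were chosen by symbol and not by any measured value. The files held 128 such genes among 16569 named genes, spread over 162 of 20624 RefSeq messenger RNA entries, and a gene with several entries was represented by the entry with the highest mean over all libraries. Total RNA of the right ventricle (RV) and left ventricle (LV) of male C57Bl/6 mice was sequenced in a paired-end, strand-specific way at postnatal day 0 (P0, before the ductus closes), P3 (the transition) and P7 (when most heart muscle cells have terminally differentiated). Each group held 3 libraries except RV P7 with 2, making 17, described in the labels as biological replicates; the labels name no treatment and no transgene. The sources used here do not say whether a library held 1 heart or a pool, or which C57Bl/6 substrain it came from.

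Heart muscle cells fire because voltage-gated sodium channels open the action potential, calcium channels hold it and couple it to contraction, and potassium channels end it and set the resting potential. Pore-forming alpha subunits of each class assemble with auxiliary subunits that set their trafficking and gating. Hyperpolarization-activated HCN channels carry the pacemaker current, which is known from the sinus node and is also present in immature ventricular muscle. In rodents the ventricular action potential shortens after birth, and a large transient outward potassium current is the best known mark of the mature cell.

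Levels are given in RPKM, reads per kilobase of transcript scaled to the size of the library. The libraries held 27568556 to 41071092 reads, as recovered from the values. A member was tested if it reached 1 RPKM in at least 2 libraries. Differences are on the scale of log2(RPKM + 1), which understates changes of low genes. Most differences of members in the main fit (all 17 libraries, RPKM as deposited) are given with a standard error. Those of other genes are given without it, as are many from other settings. Calls are at a Benjamini-Hochberg adjusted p under 0.05 from limma over all 10668 tested entries. In such bulk samples, fewer cells of a type and less RNA per cell cannot be told apart. The 7 ventricular muscle markers were high at every age and summed to 14443 to 16349 RPKM in RV P7 and 17671 to 21218 RPKM in RV P0, and to 14936 to 15592 RPKM in LV P7 and 17286 to 20084 RPKM in LV P0. An unnamed entry, NM_008710, stood at 2.99 RPKM or more in 10 libraries (all P0 libraries and replicate 1 of each P3 and P7 group) and at no more than 0.205 RPKM in the other 7, so that replicates 2 and 3 at P3 and P7 stood apart from the rest. The sources used here do not say whether these 7 came from other litters, another batch or another substrain, and such a difference cannot be fully told apart from age where P3 or P7 is set against P0. Fits among the 10 libraries alone left a single library in each P3 and P7 group, so that a call lost there may reflect the smaller number of libraries; the size of the change is given or described beside such losses. The median over all tested entries was -0.29 in the RV and -0.31 in the LV for P7 against P0, and -0.02 in each chamber once libraries were scaled to the same upper quartile, so that changes near -0.3 depend on the scaling.

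Of the 128 channel genes, 36 passed the filter and 92 did not, 62 of them with a mean under 0.1 RPKM over all libraries. Potassium channel genes made up most of those detected. Among pore-forming subunits, 8 of 35 Kv alpha genes, 6 of 12 inward rectifiers, 2 of 10 tandem-pore leak channels and 3 of 7 calcium- or sodium-activated channels passed, together with 6 of 16 auxiliary potassium channel genes. Outside the potassium channels, 2 of 4 HCN genes, 2 of 13 sodium channel genes, 1 of 4 calcium beta and 2 of 6 calcium gamma genes, and 4 of 8 ClC chloride channel and transporter genes passed. None of the 10 calcium alpha1 genes and none of the 3 alpha2delta genes did. The highest means over all libraries were those of Kcne1 (62.6 RPKM), Kcng2 (45.0 RPKM), Kcnh2 (31.9 RPKM), Kcnk3 (24 RPKM), Clcn4 (23.5 RPKM) and Kcnj5 (22.1 RPKM).

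**Figure D1:**
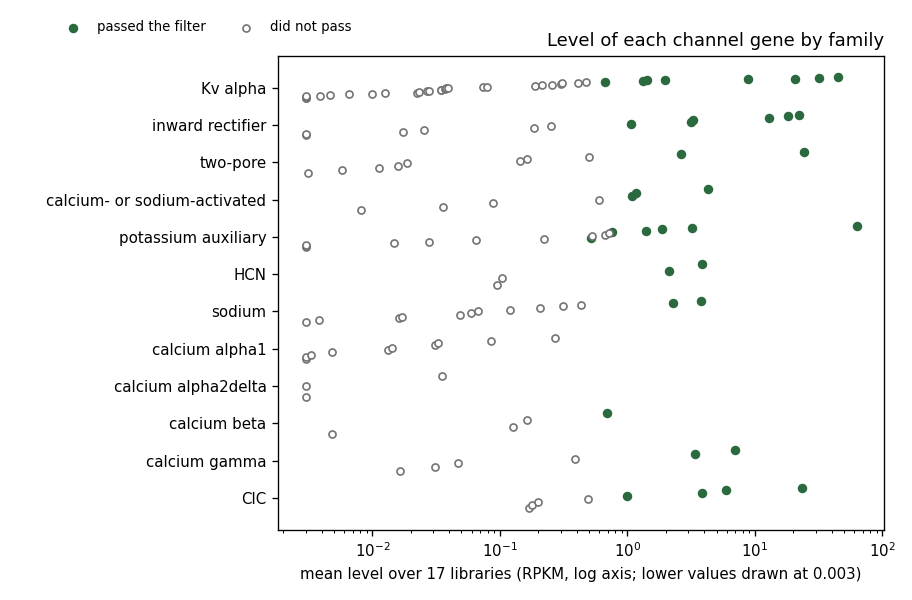
Mean level of each of the 128 channel genes over all 17 libraries (x axis, RPKM, log scale, with lower values drawn at 0.003), grouped by family (y axis). Filled points mark the 36 genes that passed the filter, and no calcium alpha1 or alpha2delta gene is among them.

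Some of the best known cardiac channel genes had low values, and this bears on how a level is read. Cacna1c, the pore of the cardiac L-type calcium channel, was split over 5 entries, and its highest entry averaged 0.031 RPKM over all libraries. Cacna2d1, the main cardiac alpha2delta subunit, had 1 entry in the files, of 5 messenger RNAs that RefSeq lists, with 0.00186 RPKM. Of members with several entries in the files 4 of 25 passed the filter, and of members with 1 entry 32 of 103. Median levels over the members of each kind were 0.128 and 0.119 RPKM. By the number of messenger RNAs that RefSeq lists, 12 of 56 members with several passed, and 24 of 72 with 1. Their medians were 0.0873 and 0.174 RPKM. The part of such splitting in the low levels was not tested. The sources used here do not say how reads shared by several transcripts were assigned, so a value of these genes is that of an entry and not a total of the gene, and a level near 0 is no measure of absence.

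Between P0 and P7 the channel genes moved in both directions in each chamber. In the RV, 20 of the 36 tested members were called for P7 against P0 (55.6%), 12 higher and 8 lower, beside 55.9% of all tested entries (9.81% higher and 46.1% lower). In the LV, 25 of 36 were called (69.4%), 11 higher and 14 lower, beside 64.9% of all entries (11.8% higher and 53% lower). The shares called were thus near those of all entries, while the median change of the tested members was 0.04 in the RV and -0.11 in the LV. Among the 10 NM_008710 libraries 16 members were called in the RV, beside 40.1% of all entries, and 16 in the LV, beside 36.5%. The calls lost there were those of Hcn4, Kcnq1, Kcnj11 and Kcnn2 in the RV, where the changes were -0.58, -0.31, 0.35 and -0.41, none of them smaller than over all libraries by more than 1.5 times. In the LV 10 calls were lost, all with the same direction; the changes of Kcne3, Clcn6, Kcne4 and Kcnmb4 were likewise not smaller by more than 1.5 times, and those of Kcng2, Kcnj5, Kcnh2, Kcne1l, Kcnn2 and Cacng6 were. Under upper-quartile scaling the split was 16 higher and 5 lower in the RV, beside 19.8% and 20.6% of all entries, and 15 higher and 9 lower in the LV, beside 24.4% and 25.3%. Kcnj4 and Kcne3 passed the filter through P0 libraries alone, Kcnip2 through P7 and Cacnb2 through P3, so their passing already required a difference between ages.

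In both chambers, 9 members rose (among them Hcn2, Kcnk3, Kcnj8, Kcnip2, Kcne1 and Scn7a) and 8 fell (Hcn4, Kcnj4, Kcna4, Kcnq1, Kcnn1, Kcnn2, Kcnmb4 and Clcn6). Cacng7, Kcnd2 and Kcnj11 rose in the RV with no call in the LV. Kcna5 and Kcne4 rose and Cacng6, Kcne1l, Kcne3, Kcng2, Kcnh2 and Kcnj5 fell in the LV with no call in the RV. The remaining 8, Cacnb2, Clcn2, Clcn4, Clcn7, Kcnj2, Kcnj3, Kcnk6 and Kcnn3, were called in neither chamber. No member was called in opposite directions in the 2 chambers. Under upper-quartile scaling Kcne4 and Kcnn3 also passed in the RV, at 0.50 (adjusted p = 0.0186) and 0.42 (adjusted p = 0.0365), and Clcn7 in the LV, at 0.27 (adjusted p = 0.0275).

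**Figure D2:**
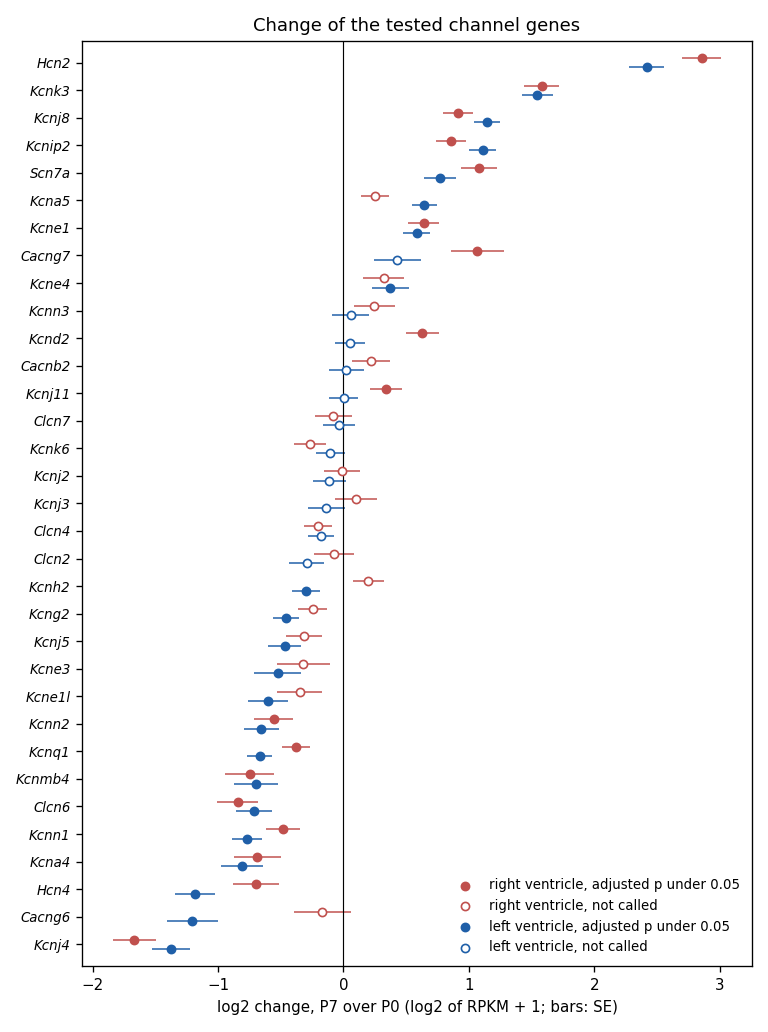
Change for P7 against P0 (x axis, log2 of RPKM + 1, bars are standard errors) of 33 of the 36 tested channel genes (y axis, ordered by the change in the left ventricle), right ventricle in red above left ventricle in blue. Filled points passed an adjusted p of 0.05: 9 higher and 8 lower in the right ventricle, and 8 higher and 14 lower in the left. Hcn2 stands farthest to the right in both chambers and Kcnj4 farthest to the left.

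The pacemaker channel genes changed in opposite directions. Hcn2 (NM_008226, chr10:79716634-79736108 of GRCm38.p6) stood at 0.465, 0.695 and 0.509 RPKM at P0, 3.25, 4.34 and 3.69 RPKM at P3, and 11.3 and 9.29 RPKM at P7 in the RV. LV levels of Hcn2 were 0.442, 0.862 and 0.34 RPKM at P0, 2.32, 3.02 and 2.97 RPKM at P3, and 8.21, 6.12 and 7.34 RPKM at P7. Every P3 library was above every P0 library and every P7 library above every P3 library of its chamber. Its mean at P7 was 18.5 times that at P0 in the RV and 13.2 times in the LV, with log2 differences of 2.86 ± 0.16 (adjusted p = 7.58e-11) and 2.42 ± 0.14 (adjusted p = 8.93e-11). These were the largest rises among the tested members.

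Hcn4 (NM_001081192, chr9:58822949-58863175), the main pacemaker channel of the sinus node, stood at 3.79, 1.79 and 1.81 RPKM at P0, 2.47, 1.84 and 2.29 RPKM at P3, and 1.25 and 0.903 RPKM at P7 in the RV. LV levels of Hcn4 were 3.53, 3.2 and 3.27 RPKM at P0, 2.48, 2.01 and 2.35 RPKM at P3, and 1.08, 0.737 and 0.911 RPKM at P7. The P7 libraries lay below the P0 libraries without overlap in each chamber, and in the RV 1 of the 3 P0 libraries was far above the others. Hcn4 fell, with a log2 difference of -0.70 ± 0.18 (adjusted p = 0.00322) in the RV and -1.19 ± 0.16 (adjusted p = 4.77e-06) in the LV. Among the 10 NM_008710 libraries the RV difference was -0.58, without a call (adjusted p = 0.117). Per length, Hcn4 was above Hcn2 in every P0 library and Hcn2 above Hcn4 in every P7 library. Hcn3 did not pass the filter and reached at most 0.236 RPKM in any library.

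Hcn4 is itself among the 8 listed markers of the pacemaker and conduction system, and their sum includes it. Of that list 3 were tested, Hcn4 among them, and all 3 fell in both chambers, while 5 averaged under 1 RPKM. Of all tested entries 46.1% were lower in the RV and 53% in the LV. The summed list stood at 3.93 to 4.47 RPKM in RV P7 and 5.67 to 14.2 RPKM in RV P0, and at 3.08 to 4.56 RPKM in LV P7 and 11.8 to 15.6 RPKM in LV P0. Of 6 atrial markers 5 were tested and 4 fell in each chamber, and their sum stood at 57.2 to 179 RPKM in RV P7 and 858 to 1208 RPKM in RV P0, and at 210 to 322 RPKM in LV P7 and 996 to 1258 RPKM in LV P0. The atrial gene Sln was under 1 RPKM on average. The part of atrial or conduction tissue in the fall of Hcn4 was not tested.

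The windows around the start of the pair of HCN genes, and of the inward rectifiers Kcnj8 and Kcnj4, are printed because each pair holds a gene that rose and a gene that fell in both chambers. They are RefSeq windows of GRCm38.p6, from 250 bases before to 50 bases after an annotated transcript start, read 5′ to 3′ on the strand of the gene; 26 of the 36 tested members had such a window (31 windows in all). Capitals mark GGGCGG, the GC box, and AGGTCA, a core motif of many nuclear receptors, each searched on both strands. These 2 motifs did not overlap each other. The start used for Kcnj4 is base 79505241, where GENCODE M21 also begins the transcript NM_008427. The RefSeq span of Kcnj4 given with its values also covers predicted transcripts and reaches further upstream. The start used for Hcn4 is base 58822949. GENCODE M21 begins the measured transcript NM_001081192 at base 58823412, so the printed Hcn4 window does not reach that start. For Hcn2 and Kcnj8 the starts used are those of GENCODE M21.
Hcn2, chr10:79716384-79716683, plus strand: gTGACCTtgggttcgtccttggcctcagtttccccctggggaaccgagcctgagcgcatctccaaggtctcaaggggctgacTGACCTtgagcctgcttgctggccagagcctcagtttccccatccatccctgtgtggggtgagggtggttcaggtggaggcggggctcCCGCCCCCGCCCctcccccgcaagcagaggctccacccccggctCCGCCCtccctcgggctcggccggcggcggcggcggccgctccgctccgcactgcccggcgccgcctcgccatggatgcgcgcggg
Hcn4, chr9:58822699-58822998, plus strand: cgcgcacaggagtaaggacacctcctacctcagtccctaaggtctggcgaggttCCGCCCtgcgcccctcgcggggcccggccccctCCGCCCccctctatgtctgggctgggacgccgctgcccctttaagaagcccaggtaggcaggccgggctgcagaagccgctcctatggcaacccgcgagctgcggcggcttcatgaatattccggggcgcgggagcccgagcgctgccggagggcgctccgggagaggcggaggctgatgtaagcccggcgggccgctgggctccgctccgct
Kcnj8, chr6:142571565-142571864, minus strand: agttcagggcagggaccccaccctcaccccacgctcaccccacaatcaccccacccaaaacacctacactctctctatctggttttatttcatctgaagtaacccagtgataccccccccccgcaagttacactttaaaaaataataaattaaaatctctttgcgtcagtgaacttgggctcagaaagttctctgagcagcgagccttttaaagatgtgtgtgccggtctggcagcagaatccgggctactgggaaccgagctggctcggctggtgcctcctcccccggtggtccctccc
Kcnj4, chr15:79505192-79505491, minus strand: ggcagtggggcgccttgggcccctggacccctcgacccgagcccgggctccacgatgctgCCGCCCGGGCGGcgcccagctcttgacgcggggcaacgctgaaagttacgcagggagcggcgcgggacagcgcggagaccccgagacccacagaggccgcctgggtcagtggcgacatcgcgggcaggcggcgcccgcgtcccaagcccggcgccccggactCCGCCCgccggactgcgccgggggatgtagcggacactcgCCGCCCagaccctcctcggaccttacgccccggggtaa

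GGGCGG occurred 3 times in the Hcn2 window, 2 times in the Hcn4 window, 4 times in the Kcnj4 window and not in the Kcnj8 window. It was present in 21 of the 31 windows of tested members (67.7%) and in 35.7% of all 32851 windows. AGGTCA occurred 2 times in the Hcn2 window and in none of the other 3; it was present in 2 of 31 windows of tested members (Hcn2 and Clcn7, 6.45%) and in 16.3% of all windows. TATAAA was in none of the 31 windows and in 13.6% of all, and the E box CANNTG was in 24 of the 31 (77.4%) and in 72.3% of all. The median content of G and C was 62.3% in the members' windows and 52.7% in all windows. Genes that rose and genes that fell both held the GC box, and these matches are letters in a window and not sites of binding.

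**Figure D3:**
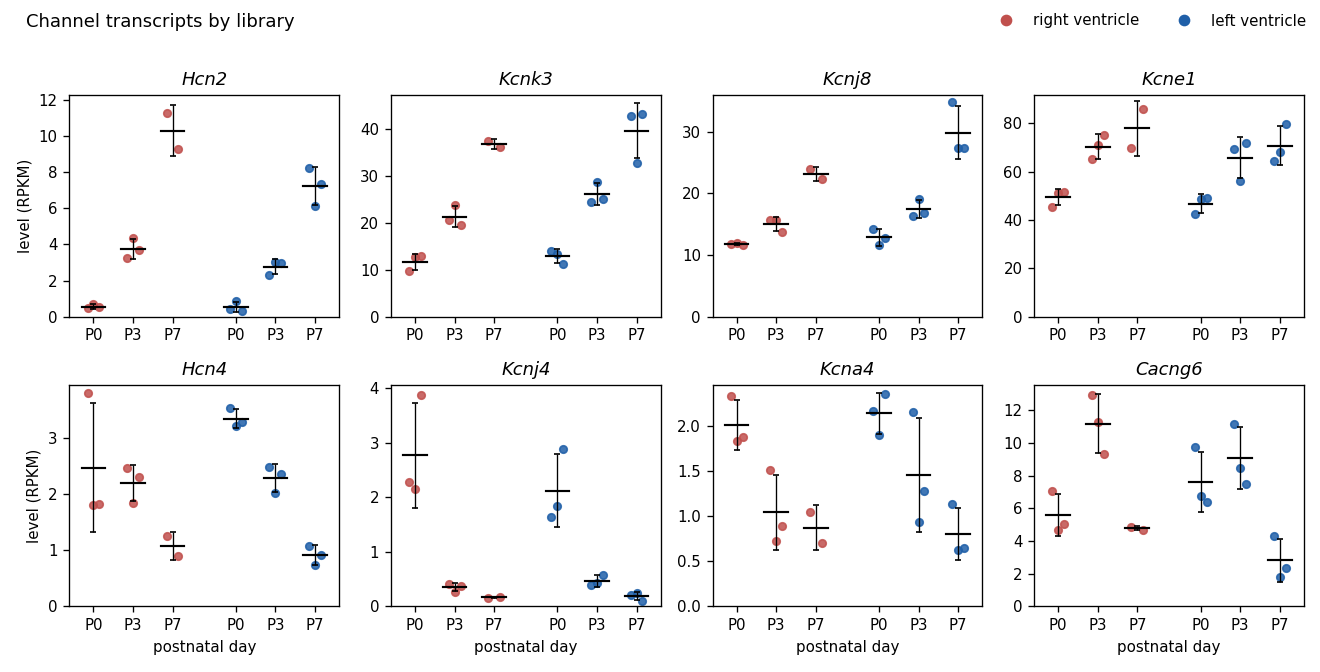
Level (y axis, RPKM, linear from 0) of 8 channel genes in each library by postnatal day (x axis), right ventricle in red at the left and left ventricle in blue at the right of each panel. Points are libraries, thick lines group means and bars SD. The means of Hcn2, Kcnk3, Kcnj8 and Kcne1 in the upper row were highest at P7, Hcn4, Kcnj4 and Kcna4 stood lowest at P7, and the mean of Cacng6 was highest at P3.

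Scn7a, an atypical sodium channel gene known as a sodium sensor of glia, stood at 1.35, 1.06 and 1.1 RPKM at P0, 2.98, 2.13 and 3.57 RPKM at P3, and 3.53 and 3.64 RPKM at P7 in the RV. LV levels of Scn7a were 1.42, 0.989 and 1.18 RPKM at P0, 2.53, 2.14 and 2.77 RPKM at P3, and 2.98, 2.55 and 2.67 RPKM at P7. It rose already by P3, and its change for P7 against P0 was 1.08 ± 0.14 (adjusted p = 7e-06) in the RV and 0.77 ± 0.13 (adjusted p = 4.82e-05) in the LV. Of 5 Schwann cell markers 1 was tested, and it fell in the LV with no call in the RV. Their sum stood at 3.37 to 4.02 RPKM in RV P7 and 2.61 to 2.83 RPKM in RV P0, and at 2.62 to 2.78 RPKM in LV P7 and 2.41 to 3.3 RPKM in LV P0. Of 8 neuronal markers 2 were tested and both rose in each chamber, with Snap25, Syn1, Th and Prph under 1 RPKM; their sum stood at 6.86 to 8.71 RPKM in RV P7 and 3.77 to 4.57 RPKM in RV P0, and at 7.18 to 8.83 RPKM in LV P7 and 2.99 to 4.5 RPKM in LV P0. Their part in the rise of Scn7a was not tested.

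Scn4a, the sodium channel of skeletal muscle, did not pass the filter and was among the members below it that rose. It averaged 0.994 ± 0.0241 RPKM in RV P7 and 0.0416 ± 0.0111 RPKM in RV P0 (SD, n = 2 and 3), and 0.645 ± 0.106 RPKM in LV P7 and 0.0618 ± 0.0197 RPKM in LV P0 (SD, n = 3 each). These levels rested on 233 to 249 reads per library in RV P7 and 8 to 13 in RV P0, and on 120 to 178 in LV P7 and 12 to 17 in LV P0. In a fit without the filter it rose by 0.94 ± 0.07 (adjusted p = 2.57e-07) in the RV and 0.63 ± 0.06 (adjusted p = 1.81e-06) in the LV. Of 5 skeletal muscle markers 2 were tested and both fell in each chamber, and the sum of the list stood at 2.78 to 2.98 RPKM in RV P7 and 9.12 to 11.6 RPKM in RV P0, and at 1.91 to 3.53 RPKM in LV P7 and 5.56 to 12 RPKM in LV P0. Scn1a, Scn3a, Scn2b and Scn3b were low, with means over all libraries of 0.0172, 0.206, 0.119 and 0.00382 RPKM. Scn4b, a beta subunit of the heart, averaged 0.125 ± 0.0471 RPKM in RV P7 and 0.00911 ± 0.00791 RPKM in RV P0, and 0.143 ± 0.072 RPKM in LV P7 and 0.0261 ± 0.0242 RPKM in LV P0.

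The calcium channel genes that could be tested were auxiliary. Cacng6 (NM_133183), a gamma subunit of muscle, stood at 7.05, 4.64 and 5.03 RPKM at P0, 12.9, 11.3 and 9.32 RPKM at P3, and 4.87 and 4.69 RPKM at P7 in the RV. LV levels of Cacng6 were 9.74, 6.74 and 6.38 RPKM at P0, 11.2, 8.49 and 7.49 RPKM at P3, and 4.31, 1.81 and 2.35 RPKM at P7. It was highest at P3, and in the RV it rose for P3 against P0 by 0.90 ± 0.20 (adjusted p = 0.00238) and fell for P7 against P3, at -1.06 ± 0.23 (adjusted p = 0.00518). In the LV it had no call at P3 and fell for P7 against P0, at -1.21 ± 0.20 (adjusted p = 5e-05), while the RV difference for P7 against P0 was -0.17 ± 0.23 (adjusted p = 0.546). Among the 10 NM_008710 libraries the LV difference was -0.68 for P7 against P0 (adjusted p = 0.0553) and the RV difference for P7 against P3 was -1.25 (adjusted p = 0.0954), neither called. The RV call for P7 against P3 was also lost without RV P7 replicate 1 (adjusted p = 0.0524).

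Cacng7, a gamma subunit best known from brain, stood at 2.03, 1.27 and 1.63 RPKM at P0, 5.61, 4.29 and 3.37 RPKM at P3, and 4.64 and 4.37 RPKM at P7 in the RV. LV levels of Cacng7 were 3.82, 1.86 and 2.72 RPKM at P0, 2.9, 3.6 and 3.44 RPKM at P3, and 5.47, 3.64 and 3.18 RPKM at P7. It rose in the RV by 1.07 ± 0.21 (adjusted p = 0.000335), and its LV difference was 0.43 ± 0.19 (adjusted p = 0.0508), which passed under upper-quartile scaling (adjusted p = 0.00353). The entry used for Cacnb2, the main beta subunit of the cardiac calcium channel, averaged 0.678 ± 0.0356 RPKM in RV P7 and 0.444 ± 0.107 RPKM in RV P0. It had no call for P7 against P0 in either chamber. Another Cacnb2 entry, below the filter, averaged 0.103 ± 0.0172 RPKM in RV P7 and 0.334 ± 0.0315 RPKM in RV P0. In the LV that entry averaged 0.107 ± 0.0458 RPKM at P7 and 0.472 ± 0.0704 RPKM at P0. The total of the gene was not tested. Of the T-type pores, Cacna1h averaged 0.22 ± 0.012 RPKM in RV P7 and 0.313 ± 0.0889 RPKM in RV P0, and 0.124 ± 0.0617 RPKM in LV P7 and 0.389 ± 0.117 RPKM in LV P0. Cacna1g reached at most 0.165 RPKM, Cacna1d 0.0265 RPKM, Cacnb1 0.31 RPKM and Cacnb3 0.313 RPKM in any library.

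Genes of the transient outward current changed in different directions. Kcna4, which carries its slowly recovering part, stood at 2.33, 1.83 and 1.87 RPKM at P0, 1.51, 0.719 and 0.893 RPKM at P3, and 1.04 and 0.697 RPKM at P7 in the RV. LV levels of Kcna4 were 2.16, 1.9 and 2.35 RPKM at P0, 2.15, 0.936 and 1.27 RPKM at P3, and 1.13, 0.621 and 0.641 RPKM at P7. It fell for P7 against P0, at -0.69 ± 0.19 (adjusted p = 0.00491) in the RV and -0.81 ± 0.17 (adjusted p = 0.000389) in the LV, the RV call being lost without RV P7 replicate 2 (adjusted p = 0.065). In every P3 and P7 group the highest Kcna4 level was that of replicate 1, the library that held NM_008710. For P3 against P0 in the RV the Kcna4 difference was -0.58 over all libraries and -0.26 among the 10 NM_008710 libraries. The part of this split between libraries in the fall of Kcna4 was not tested. Kcnd2 (chr6:21215346-21729805), a pore of the fast part, stood at 1.81, 1.87 and 1.83 RPKM at P0, 2.5, 1.52 and 2.24 RPKM at P3, and 3.55 and 3.24 RPKM at P7 in the RV. LV levels of Kcnd2 were 2.06, 1.49 and 1.74 RPKM at P0, 1.48, 1.34 and 1.32 RPKM at P3, and 1.92, 1.64 and 1.99 RPKM at P7. The RV libraries at P7 were above all other libraries, with a rise of 0.63 ± 0.13 (adjusted p = 0.000692), whereas the LV difference was 0.05 ± 0.12 (adjusted p = 0.731). The LV difference passed under upper-quartile scaling, at 0.28 (adjusted p = 0.0381). Kcnd3, the other pore of the fast part, was below the filter and averaged 0.25 ± 0.0104 RPKM in RV P7 and 0.706 ± 0.201 RPKM in RV P0, and 0.207 ± 0.017 RPKM in LV P7 and 0.537 ± 0.133 RPKM in LV P0. In the fit without the filter it fell, at -0.44 ± 0.09 (adjusted p = 0.00173) in the RV and -0.34 ± 0.08 (adjusted p = 0.00316) in the LV.

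Kcnip2, the subunit on which the fast transient outward current of the ventricle depends, was listed in 4 entries. The entry used, NM_145703, stood at 0.163, 0.373 and 0.228 RPKM at P0, 0.776, 0.932 and 0.547 RPKM at P3, and 1.16 and 1.38 RPKM at P7 in the RV. LV levels of Kcnip2 were 0.161, 0.245 and 0.0899 RPKM at P0, 0.773, 0.699 and 0.845 RPKM at P3, and 1.55, 1.37 and 1.62 RPKM at P7. It rose by 0.86 ± 0.12 (adjusted p = 1.26e-05) in the RV and 1.11 ± 0.11 (adjusted p = 8.61e-08) in the LV. Another entry, NM_145704, averaged 0.45 ± 0.0323 RPKM in RV P7 and 0.642 ± 0.119 RPKM in RV P0, and 0.864 ± 0.219 RPKM in LV P7 and 0.609 ± 0.157 RPKM in LV P0. The entry NM_030716 averaged 0.596 ± 0.345 RPKM in RV P7 and 0.337 ± 0.12 RPKM in RV P0, and 0.677 ± 0.133 RPKM in LV P7 and 0.504 ± 0.159 RPKM in LV P0. The 4th was near 0. The tested change is that of NM_145703, and the total of the gene was not tested.

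Of the delayed rectifiers of the rodent ventricle, Kcna5 rose in the LV. Kcna5 (chr6:126532551-126535555), the pore of the ultrarapid delayed rectifier, stood at 6.34, 7.97 and 7.4 RPKM at P0, 7.72, 7.54 and 6.77 RPKM at P3, and 8.7 and 8.84 RPKM at P7 in the RV. LV levels of Kcna5 were 7.91, 8.79 and 7.79 RPKM at P0, 9.53, 7.92 and 8.11 RPKM at P3, and 13.6, 12.7 and 13.7 RPKM at P7. All 3 LV P7 libraries were above every other library, and the rise of 0.64 ± 0.10 (adjusted p = 2.08e-05) was called in the LV, beside 0.25 ± 0.11 (adjusted p = 0.0621) in the RV. Under upper-quartile scaling the RV difference was 0.54 (adjusted p = 0.000791). Kcng2, a silent subunit that modifies other Kv channels, was among the highest members, at 40.3 ± 5.65 RPKM in RV P7 and 47.7 ± 1.63 RPKM in RV P0, and 36.3 ± 6.57 RPKM in LV P7 and 49.7 ± 1.67 RPKM in LV P0. Its fall in the LV of -0.46 ± 0.10 (adjusted p = 0.000816) was lost under upper-quartile scaling (adjusted p = 0.368). Kcna1 and Kcna2 were near 0, at no more than 0.0617 and 0.0832 RPKM.

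The slow delayed rectifier current is made by the pore Kcnq1 with its partner Kcne1, and the 2 moved apart. Kcnq1 stood at 19.4, 22.5 and 22 RPKM at P0, 27, 25.3 and 23.6 RPKM at P3, and 16.9 and 15.3 RPKM at P7 in the RV. LV levels of Kcnq1 were 21.6, 23.8 and 22.3 RPKM at P0, 25.1, 20.7 and 24.2 RPKM at P3, and 15.5, 12.6 and 13.6 RPKM at P7. It had no call by P3, except in the RV under upper-quartile scaling, at 0.37 (adjusted p = 0.0063), and every P7 library was below every earlier one of its chamber, with a difference for P7 against P0 of -0.38 ± 0.11 (adjusted p = 0.00698) in the RV and -0.67 ± 0.10 (adjusted p = 1.14e-05) in the LV. The RV call was lost under upper-quartile scaling (adjusted p = 0.627), among the 10 NM_008710 libraries at a change of -0.31 (adjusted p = 0.0811) and without RV P7 replicate 2 (adjusted p = 0.0735). Kcnq1 overlaps the antisense gene Kcnq1ot1, and the sources used here do not say whether counting used the strand, so their reads cannot be told apart. In all, 13 of the 36 tested members overlap a gene on the opposite strand, among them Kcnh2, Kcng2, Kcnk3, Kcnj3 and Kcnn2.

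Kcne1 stood at 45.5, 51.3 and 51.7 RPKM at P0, 65.1, 70.8 and 75.1 RPKM at P3, and 69.8 and 85.9 RPKM at P7 in the RV. LV levels of Kcne1 were 42.3, 48.8 and 49.1 RPKM at P0, 69.4, 56.1 and 71.6 RPKM at P3, and 64.2, 68.1 and 79.6 RPKM at P7. It rose by P3, and for P7 against P0 by 0.64 ± 0.12 (adjusted p = 0.000314) in the RV and 0.58 ± 0.11 (adjusted p = 0.000175) in the LV. Per length, the level of Kcne1 was above that of Kcnq1 in every library. Of the other Kcne subunits, which also bind Kcnq1 and further potassium channels, Kcne4 averaged 1.61 ± 0.675 RPKM in RV P7 and 1.07 ± 0.327 RPKM in RV P0, and 1.56 ± 0.131 RPKM in LV P7 and 0.985 ± 0.169 RPKM in LV P0, and was called in the LV, at 0.37 ± 0.15 (adjusted p = 0.0348). That call was lost without LV P0 replicate 1 or 3 or LV P7 replicate 1 or 2 (adjusted p = 0.118, 0.0715, 0.0926 and 0.0773). Kcne1l fell in the LV, at -0.60 ± 0.16 (adjusted p = 0.0031), as did Kcne3, at -0.52 ± 0.19 (adjusted p = 0.0206). Kcne3 stood at 0.239, 1.05 and 1.6 RPKM in the 3 LV P0 libraries, of which replicates 2 and 3 were above all other LV libraries. Its call was lost without either of them (adjusted p = 0.066 and 0.168) and without LV P7 replicate 2 or 3 (adjusted p = 0.0512 and 0.0523). Under upper-quartile scaling neither Kcne1l nor Kcne3 was called (adjusted p = 0.0677 and 0.0784). The Kcne3 levels rested on few recovered reads, 4 to 24 per library in LV P0 and 4 to 5 in LV P7. Another tested entry of Kcne3 averaged 0.141 ± 0.135 RPKM in LV P7 and 0.988 ± 0.451 RPKM in LV P0. The total of that gene was not tested.

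Kcnh2, the pore of the rapid delayed rectifier, was among the most abundant members. It stood at 27.9, 28.1 and 25.5 RPKM at P0, 39.2, 38.7 and 37.8 RPKM at P3, and 33.6 and 29.2 RPKM at P7 in the RV. LV levels of Kcnh2 were 36.2, 32.8 and 28.4 RPKM at P0, 39.6, 32.4 and 34.2 RPKM at P3, and 30.2, 22 and 26.6 RPKM at P7. It was highest at P3 in the RV, above every RV P0 library, with a rise for P3 against P0 of 0.49 ± 0.11 (adjusted p = 0.00251); among the 10 NM_008710 libraries it was 0.51, without a call (adjusted p = 0.0518). For P7 against P0 it fell in the LV, at -0.30 ± 0.11 (adjusted p = 0.0246), beside 0.20 ± 0.12 (adjusted p = 0.182) in the RV. Under upper-quartile scaling the LV value turned to 0.04 (adjusted p = 0.736) and the RV value was 0.51 (adjusted p = 0.00112). The direction of Kcnh2 in the LV therefore depended on the scaling, and its call was also lost without LV P0 replicate 1 or 2 or LV P7 replicate 2 (adjusted p = 0.128, 0.0568 and 0.167). Its auxiliary partner Kcne2 was below the filter, at 0.0324 ± 0.0458 RPKM in RV P7 and 0.408 ± 0.143 RPKM in RV P0, and 0.0387 ± 0.0241 RPKM in LV P7 and 0.529 ± 0.16 RPKM in LV P0. Without the filter Kcne2 fell, at -0.44 ± 0.09 (adjusted p = 0.00125) in the RV and -0.55 ± 0.08 (adjusted p = 5.69e-05) in the LV.

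Among the inward rectifiers, which hold the resting potential, the subunits differed. Kcnj2, the main pore of the background inward rectifier of the ventricle, stood at 13.2, 11.2 and 12.8 RPKM at P0, 15.9, 12.6 and 12.3 RPKM at P3, and 12.8 and 11.8 RPKM at P7 in the RV. LV levels of Kcnj2 were 12, 11.7 and 15.5 RPKM at P0, 16.7, 13 and 12.3 RPKM at P3, and 13.3, 10.9 and 11.7 RPKM at P7. The ages overlapped, with differences for P7 against P0 of -0.01 ± 0.14 (adjusted p = 0.957) and -0.11 ± 0.13 (adjusted p = 0.449). Kcnj4 (NM_008427, chr15:79480226-79512511), another strong inward rectifier of the same class, stood at 2.28, 2.16 and 3.88 RPKM at P0, 0.403, 0.268 and 0.374 RPKM at P3, and 0.153 and 0.173 RPKM at P7 in the RV. LV levels of Kcnj4 were 1.64, 1.83 and 2.89 RPKM at P0, 0.381, 0.426 and 0.58 RPKM at P3, and 0.208, 0.25 and 0.101 RPKM at P7. All P0 libraries were above all later ones. It fell by P3, at -1.46 ± 0.15 (adjusted p = 8.31e-07) in the RV and -1.08 ± 0.15 (adjusted p = 4.09e-05) in the LV, and for P7 against P0, at -1.67 ± 0.17 (adjusted p = 3.26e-07) and -1.38 ± 0.15 (adjusted p = 4.51e-07). Its mean at P0 was 17 times that at P7 in the RV and 11.4 times in the LV, and at P7 the Kcnj2 entry was above 1 RPKM and the Kcnj4 entry below it in every library. Kcnj12, another member of the class, had 2 entries and reached at most 0.469 RPKM.

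The pores of the ATP-sensitive potassium channel, which open when ATP runs low, were both detected. Kcnj8 (NM_008428, chr6:142564837-142571614) stood at 11.7, 11.9 and 11.7 RPKM at P0, 15.7, 15.7 and 13.8 RPKM at P3, and 23.9 and 22.3 RPKM at P7 in the RV. LV levels of Kcnj8 were 14.3, 11.6 and 12.8 RPKM at P0, 16.4, 19.1 and 16.8 RPKM at P3, and 34.8, 27.4 and 27.3 RPKM at P7. The ages did not overlap in either chamber, and Kcnj8 rose for P7 against P0 by 0.91 ± 0.12 (adjusted p = 3.96e-06) in the RV and 1.15 ± 0.10 (adjusted p = 3.61e-08) in the LV. Kcnj11 stood at 1.93, 2.54 and 2.49 RPKM at P0, 4.64, 3.82 and 3.54 RPKM at P3, and 3.21 and 3.16 RPKM at P7 in the RV. LV levels of Kcnj11 were 2.83, 3.29 and 2.83 RPKM at P0, 4.17, 3.61 and 4.1 RPKM at P3, and 2.95, 2.67 and 3.35 RPKM at P7. It was highest at P3 and rose in the RV for P7 against P0 by 0.34 ± 0.13 (adjusted p = 0.0308), beside 0.00 ± 0.11 (adjusted p = 0.992) in the LV. Under upper-quartile scaling the LV difference was 0.27 and passed (adjusted p = 0.0467). The RV call was lost without RV P0 replicate 1 (adjusted p = 0.116), RV P7 replicate 1 (adjusted p = 0.131) or RV P7 replicate 2 (adjusted p = 0.093), and among the 10 NM_008710 libraries at a change no smaller than over all libraries, 0.35 (adjusted p = 0.14). Their regulatory partner Abcc8 averaged 9.98 ± 0.44 RPKM in RV P7 and 8.41 ± 2.47 RPKM in RV P0, with adjusted p = 0.217 in the RV and 0.0548 in the LV, and Abcc9, split over 3 entries, was under 1 RPKM.

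Kcnj8 is also a marker of pericytes. Of 8 smooth muscle and pericyte markers, Kcnj8 among them, 5 were tested; 2 rose and 3 fell in each chamber, and Abcc9, Pdgfrb and Myh11 averaged under 1 RPKM. The list summed to 604 to 722 RPKM in RV P7 and 702 to 832 RPKM in RV P0, and to 505 to 534 RPKM in LV P7 and 681 to 807 RPKM in LV P0. Of 6 endothelial markers all were tested; 4 rose in the RV and 5 in the LV, and they summed to 267 to 268 RPKM in RV P7 and 165 to 204 RPKM in RV P0, and to 346 to 393 RPKM in LV P7 and 168 to 197 RPKM in LV P0. The part of vascular cells in the rise of Kcnj8 was not tested.

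The G-protein-gated rectifiers answer to acetylcholine from the vagus and are known mainly from atrium and nodes. Kcnj3 stood at 3.1, 2.59 and 3.73 RPKM at P0, 3.09, 2.51 and 4.17 RPKM at P3, and 3.87 and 2.98 RPKM at P7 in the RV. LV levels of Kcnj3 were 3.18, 3.2 and 2.42 RPKM at P0, 3.08, 3.49 and 4.14 RPKM at P3, and 2.78, 2.73 and 2.21 RPKM at P7. P7 and P0 libraries overlapped in each chamber, with differences of 0.10 ± 0.17 (adjusted p = 0.629) and -0.14 ± 0.15 (adjusted p = 0.424), which does not show the level to be constant. Its partner Kcnj5 was several times higher per length, at 21.7, 20.8 and 18.9 RPKM at P0, 30.3, 26.5 and 26.2 RPKM at P3, and 17.5 and 15.1 RPKM at P7 in the RV. LV levels of Kcnj5 were 21.1, 24.8 and 21.3 RPKM at P0, 31.2, 26 and 25.8 RPKM at P3, and 20.6, 12.7 and 15.2 RPKM at P7. It was highest at P3, fell for P7 against P3, at -0.73 ± 0.15 (adjusted p = 0.00332) in the RV and -0.76 ± 0.13 (adjusted p = 0.000401) in the LV, and for P7 against P0 in the LV, at -0.47 ± 0.13 (adjusted p = 0.00429). The call for P7 against P0 was lost under upper-quartile scaling (adjusted p = 0.376) and among the 10 NM_008710 libraries at -0.11 (adjusted p = 0.541). For P7 against P3 those libraries gave -0.76 in the RV (adjusted p = 0.0865) and -0.58 in the LV (adjusted p = 0.0787). The receptor Chrm2, through which the vagus opens these channels, averaged 5.95 ± 2.54 RPKM in LV P7 and 11.4 ± 0.828 RPKM in LV P0 and fell there, at -0.89 (adjusted p = 0.00124).

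Kcnk3 (NM_010608, chr5:30588170-30625270), an acid-sensitive tandem-pore leak channel, had the largest rise after Hcn2 in both chambers on the scale of log2(RPKM + 1). It stood at 9.72, 12.6 and 12.8 RPKM at P0, 20.6, 23.9 and 19.5 RPKM at P3, and 37.6 and 36.1 RPKM at P7 in the RV. LV levels of Kcnk3 were 14, 13.4 and 11.2 RPKM at P0, 24.5, 28.8 and 25.2 RPKM at P3, and 42.9, 32.8 and 43.1 RPKM at P7. The 3 ages were separated without overlap in each chamber. Kcnk3 rose for P7 against P0 by 1.58 ± 0.14 (adjusted p = 4.15e-08) in the RV and 1.54 ± 0.12 (adjusted p = 6.89e-09) in the LV, 3.14 and 3.08 times in the means. In ratios of means the lower Kcnip2 entry rose more, 4.98 times in the RV and 9.15 times in the LV. Kcnk6, another leak channel, averaged 2.36 ± 0.0971 RPKM in RV P7 and 3.07 ± 0.585 RPKM in RV P0, with no call in either chamber. Kcnk2, a mechanosensitive leak channel with 2 entries, was below the filter, and its entry averaged 0.284 ± 0.0563 RPKM in LV P7 and 0.0519 ± 0.0182 RPKM in LV P0; Kcnk1 reached at most 0.349 RPKM.

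Of the 3 tested calcium-activated channels, Kcnn1 and Kcnn2 fell. Kcnn2, a small-conductance channel, averaged 2.87 ± 0.564 RPKM in RV P7 and 4.67 ± 0.287 RPKM in RV P0, and 3.07 ± 0.815 RPKM in LV P7 and 5.35 ± 0.509 RPKM in LV P0, with changes of -0.56 ± 0.16 (adjusted p = 0.00576) and -0.66 ± 0.14 (adjusted p = 0.000471). Its relative Kcnn1 averaged 0.803 ± 0.12 RPKM in RV P7 and 1.52 ± 0.23 RPKM in RV P0, and 0.584 ± 0.0553 RPKM in LV P7 and 1.71 ± 0.25 RPKM in LV P0, with changes of -0.48 ± 0.13 (adjusted p = 0.00507) and -0.77 ± 0.12 (adjusted p = 1.9e-05). The RV calls of both were lost under upper-quartile scaling (adjusted p = 0.101 for Kcnn2 and 0.0596 for Kcnn1), that of Kcnn2 also without RV P7 replicate 2 (adjusted p = 0.0934) and that of Kcnn1 without RV P7 replicate 1 (adjusted p = 0.0654). Both Kcnn2 calls were lost among the 10 NM_008710 libraries, at -0.41 (adjusted p = 0.0712) in the RV and -0.34 (adjusted p = 0.125) in the LV. Kcnn3 was not called, and Kcnn4 reached at most 0.184 RPKM. Kcnmb4, a beta subunit of the large-conductance channel, fell, at -0.75 ± 0.19 (adjusted p = 0.00326) in the RV and -0.70 ± 0.17 (adjusted p = 0.00178) in the LV, where it averaged 1.32 ± 0.34 RPKM at P7 and 2.83 ± 1.08 RPKM at P0.

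Of the ClC genes, which encode chloride channels of the surface and chloride-proton exchangers of endosomes and lysosomes, 1 was called for P7 against P0. Clcn6, an exchanger of late endosomes, stood at 5.62, 5.03 and 5.05 RPKM at P0, 4.32, 3.94 and 3.09 RPKM at P3, and 2.17 and 2.8 RPKM at P7 in the RV. LV levels of Clcn6 were 6.51, 4.78 and 3.94 RPKM at P0, 3.52, 2.95 and 3.12 RPKM at P3, and 2.95, 2.21 and 2.83 RPKM at P7. It fell, at -0.84 ± 0.16 (adjusted p = 0.000246) in the RV and -0.71 ± 0.14 (adjusted p = 0.000276) in the LV, the LV call being lost among the 10 NM_008710 libraries at a change of -0.60 (adjusted p = 0.0553). Clcn4, an endosomal exchanger and the most abundant ClC member, averaged 19.9 ± 2.68 RPKM in RV P7 and 23 ± 0.413 RPKM in RV P0, with no call for P7 against P0 in either chamber and a fall for P7 against P3 of -0.41 ± 0.11 (adjusted p = 0.0191) in the RV and -0.35 ± 0.10 (adjusted p = 0.0123) in the LV. Under upper-quartile scaling both falls were smaller and lost their call, at -0.23 (adjusted p = 0.114) in the RV and -0.17 (adjusted p = 0.131) in the LV. Among the 10 NM_008710 libraries they were larger but not called, at -0.57 (adjusted p = 0.11) and -0.50 (adjusted p = 0.083). The lysosomal Clcn7 and the surface channel Clcn2 were not called. Clcn5, with 2 entries and below the filter, averaged 0.0291 ± 0.0224 RPKM in RV P7 and 0.30 ± 0.118 RPKM in RV P0, and 0.0313 ± 0.034 RPKM in LV P7 and 0.449 ± 0.215 RPKM in LV P0; Clcn3 reached at most 0.368 RPKM.

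By steps, more channel genes rose than fell up to P3. For P3 against P0 in the RV, 14 members rose and 5 fell, beside 9.72% and 21.5% of all entries; in the LV 10 rose and 5 fell, beside 7.26% and 20.6%. For P7 against P3 in the RV, 6 rose and 5 fell, beside 2.5% and 14.8%; in the LV 6 rose and 10 fell, beside 6.56% and 27.9%. Under upper-quartile scaling 17 rose and 4 fell in the RV and 14 rose and 3 fell in the LV for P3 against P0, beside 17.4% and 14.1% and beside 13% and 10.6% of all entries. For P7 against P3 it gave 9 higher and 4 lower in the RV, beside 5.97% and 5.18%, and 8 higher and 5 lower in the LV, beside 13.4% and 12.7%, so that the balance of rises and falls in the LV turned with the scaling. The 2 steps share the P3 libraries. Hcn2, Kcnk3, Kcnj8 and Kcnip2 rose in both steps in both chambers. Kcne1 and Scn7a rose by P3 with no call afterwards (Scn7a in the RV passed for P7 against P3 under upper-quartile scaling, at 0.41, adjusted p = 0.0399). Kcnq1 and Hcn4 fell after P3, with no call before it in the main fit. In the LV the P3 libraries of Hcn4 already lay below all P0 libraries, with a difference of -0.40 (adjusted p = 0.0697). With the replicate number as a block that difference passed (adjusted p = 0.0224), but the numbers did not pair libraries of different ages. The later step in the RV, with 2 libraries at P7, rested on single libraries for several members: without RV P7 replicate 1 the calls for P7 against P3 of Hcn4, Kcnj8, Clcn4 and Kcnip2 were lost (adjusted p = 0.0887, 0.0606, 0.265 and 0.128). Without RV P7 replicate 2 those of Hcn4 and Kcnip2 were lost (adjusted p = 0.144 and 0.18), without RV P3 replicate 1 those of Hcn4, Clcn4 and Kcnip2 (adjusted p = 0.0809, 0.0581 and 0.0786), and without RV P3 replicate 3 those of Hcn4, Clcn4 and Kcnip2 (adjusted p = 0.0693, 0.0586 and 0.146). In the LV the call of Clcn4 for P7 against P3 was lost without LV P3 replicate 1 or 3 or LV P7 replicate 2 (adjusted p = 0.078, 0.0596 and 0.0523). For P3 against P0 the call of Kcnj8 in the RV was lost without RV P0 replicate 3 or RV P3 replicate 1 or 2 (adjusted p = 0.0551, 0.079 and 0.0762). Among the 10 NM_008710 libraries, in which P3 and P7 had 1 library per chamber, 10 members remained called in the RV and 5 in the LV for P3 against P0, beside 10.4% and 4.79% of all entries. For P7 against P3, 1 remained called in the RV and 4 in the LV, beside 0.544% and 4.69%. The calls lost there all kept their direction, and in 6 of 9 in the RV and 9 of 10 in the LV for P3 against P0, and 10 of 10 in the RV and 11 of 12 in the LV for P7 against P3, the change was not smaller by more than 1.5 times. Among them were the calls of Kcnip2 in both steps of both chambers, of Kcnk3 for P7 against P3 in both, and of Kcnj8 for P3 against P0 in both and P7 against P3 in the RV.

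Few channel genes differed between the chambers beyond the spread of the libraries. No member was called for RV against LV at P0, P3 or P7 by limma, where 0.141%, 0.825% and 0.159% of all entries were; 6, 3 and 6 of the 36 had an unadjusted p under 0.05. Averaged over the ages, 2 members were called (5.56%), beside 1.61% of all entries (0.797% higher and 0.816% lower). Kcnd2 was higher in the RV by 0.35 ± 0.07 (adjusted p = 0.0157), and higher in the RV library in 7 of 8 pairs of the same age and number. Kcna5 was lower in the RV, at -0.30 ± 0.06 (adjusted p = 0.0124), and lower in all 8 pairs. The Kcnd2 call was lost without RV P7 replicate 1 (adjusted p = 0.069), and neither was called among the 10 NM_008710 libraries, where the differences were 0.40 for Kcnd2 and -0.34 for Kcna5 (adjusted p = 0.509 for each).

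**Figure D4:**
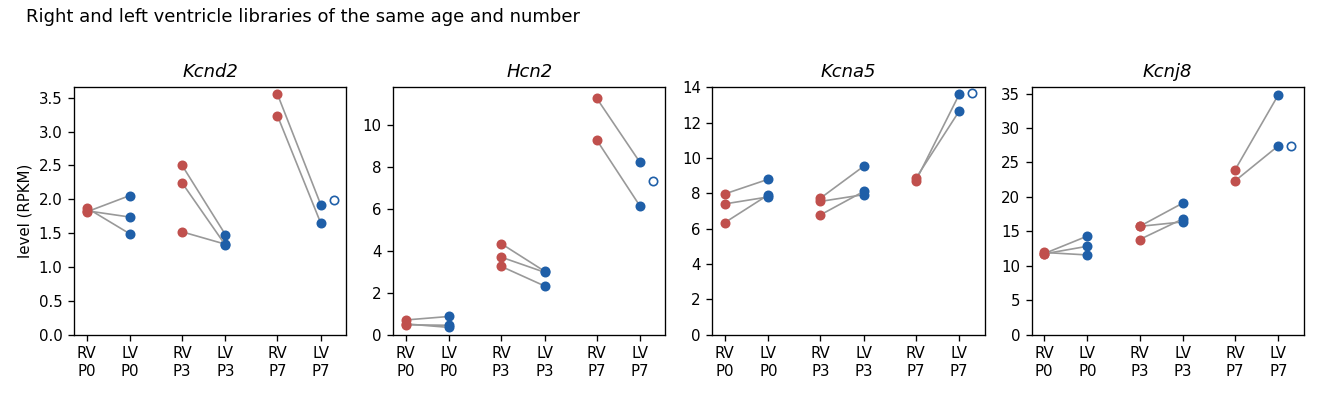
Level (y axis, RPKM, linear from 0) of 4 channel genes in right ventricle (red, left) and left ventricle (blue, right) libraries at each age (x axis); lines join libraries of the same age and replicate number, and the open point is LV P7 replicate 3, which has no RV partner. Kcnd2 and Hcn2 were higher in the right ventricle in 7 of 8 pairs, and Kcna5 was lower in 8 of 8 and Kcnj8 in 7 of 8.

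Libraries of the same age and number deviated together in the 2 chambers, and with the pair as a block more members passed. At P3, Kcnd2 and Hcn2 were higher in the RV, by 0.36 ± 0.10 (adjusted p = 0.0485) and 0.34 ± 0.10 (adjusted p = 0.0446), 2 of 36 members beside 5.99% of all entries. At P7, Kcnd2 was higher in the RV by 0.66 ± 0.13 (adjusted p = 0.0165) and Kcna5 lower, at -0.53 ± 0.10 (adjusted p = 0.0165), beside 1% of all entries. At P7 Kcnd2 stood at 3.55 and 3.24 RPKM in the RV and 1.92, 1.64 and 1.99 RPKM in the LV, and Kcna5 at 8.7 and 8.84 RPKM in the RV and 13.6, 12.7 and 13.7 RPKM in the LV, in both cases without overlap. Averaged over ages, 4 members passed (11.1%), beside 8.65% of all entries: Kcnd2, Kcna5, Hcn2, higher in the RV by 0.28 ± 0.06 (adjusted p = 0.00731), and Kcnj8, lower, at -0.24 ± 0.05 (adjusted p = 0.00913). At P0 no member passed with the block either.

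Whether a change with age differed between the chambers was tested directly. No member was called for the difference in the P7 against P0 change, beside 0.0375% of all entries, and 5 of 36 had an unadjusted p under 0.05. The calls made in 1 chamber alone, above, are therefore not shown to differ between chambers. With the pair as a block Cacng6 was called, at 0.97 ± 0.19 (adjusted p = 0.0316), the fitted fall being greater in the LV. In that fit 0.328% of all entries passed. P7 entered it with 2 pairs, whose RV minus LV differences of Cacng6 were unlike, 0.15 for replicate 1 and 1.02 for replicate 2. The P0 pairs gave -0.42, -0.46 and -0.29. For Kcnd2 the difference was 0.58 ± 0.18 (adjusted p = 0.638) without the block and 0.62 ± 0.17 (adjusted p = 0.132) with it.

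The genes that work beside these channels were taken as a list of 56 genes of coupling, calcium handling, pumps and channel regulation, of which 42 were tested. For P7 against P0, 6 rose and 11 fell in the RV (median -0.05), beside 9.81% and 46.1% of all entries, and 7 rose and 17 fell in the LV (median -0.14), beside 11.8% and 53%; the medians over all entries were -0.29 and -0.31. Atp2a2, the calcium pump of the sarcoplasmic reticulum, rose by 0.83 (adjusted p = 8.09e-05) in the RV and 0.60 (adjusted p = 0.000391) in the LV. The sodium-calcium exchanger Slc8a1, with 2 entries, fell, at -0.81 (adjusted p = 5.26e-05) and -1.27 (adjusted p = 4.09e-08). The sodium pump subunit Atp1b1 fell, at -0.71 (adjusted p = 1.55e-05) and -0.80 (adjusted p = 5.3e-07). Rgs4, which shortens G-protein signals, rose by 1.66 (adjusted p = 1.49e-08) and 1.90 (adjusted p = 2.53e-10). Gja5, a gap junction protein of atrium and conduction tissue, fell, at -0.61 (adjusted p = 0.00108) and -0.88 (adjusted p = 5.82e-06). No gene of this list was called between RV and LV averaged over ages.

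Of the 92 members below the filter, 83 were above 0 in at least 2 libraries and entered a fit without it. In that fit 7 rose and 11 fell for P7 against P0 in the RV, beside 3.73% and 6.53% of the 8957 entries below the filter; 10 rose and 11 fell in the LV, beside 4.95% and 10.8%. Among these, Scn4a, Scn4b, Kcna1 and Kcnc4 rose and Kcnc2, Kcnd3, Clcn5, Kcna3, Kcnk5 and Kcne2 fell in both chambers. Kcnc4, a fast Kv channel, averaged 0.289 ± 0.0318 RPKM in RV P7 and 0.0544 ± 0.0355 RPKM in RV P0, and 0.389 ± 0.0379 RPKM in LV P7 and 0.10 ± 0.0483 RPKM in LV P0. Its relative Kcnc2 averaged 0.223 ± 0.0881 RPKM in RV P7 and 0.761 ± 0.173 RPKM in RV P0, and 0.231 ± 0.0547 RPKM in LV P7 and 0.676 ± 0.113 RPKM in LV P0. Just under the filter were Kcnab1, Kcnab3 and Scn4a, each at 1 RPKM or more in 1 library.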

How the data were processed

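RNA of right and left ventricles at 3 ages was measured in 17 libraries. The authors deposited RPKM values, 1 for each RefSeq entry in each library; this unit was inferred from the values, which were whole multiples of a step that fell with transcript length, since neither header nor label gives it. STAR 2.4.0j and mm10 appear in the submitters' processing notes. Which program counted reads, whether it used strand and which annotation it took are not stated. Read numbers per library were recovered from those steps, and 153 of the 162 channel entries came out as whole reads within 0.02. The length that made them whole was searched for over a wide range, so this does not check the read numbers. Those of some entries, such as Hcn2 and Cacng6, share a common factor and may be too high. Library depth limits low genes, and no interval from it was used.

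Names came from RefSeq (GRCm38.p6, 20379 entries) and GENCODE M21 (76 entries); 169 entries had no name. The 10668 entries that reached 1 RPKM in 2 or more libraries were fitted with limma 3.58.1 as log2(RPKM + 1), 1 mean for each of 6 groups (eBayes with trend, two-sided, R 4.3.3), for 11 comparisons, with p adjusted by Benjamini-Hochberg over all tested entries; tables used pandas 2.3.3. On simulated data for LV P7 against P0 over 10668 entries, 99 of 100 entries changed by 1 and 51 of 100 changed by 0.5 (log2) were recovered, with 10 false calls. All other simulated entries had a common mean over the groups, with independent normal noise. Far fewer entries changed there than were called in the real comparison, so these rates do not carry over to it. Groups were taken from the labels, and p-values measure the spread between libraries, which the labels call biological replicates.

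No label ties libraries of a number together. RV and LV libraries of the same age and number deviated together from their group means (correlation 0.27 to 0.59 over entries in all 8 pairs), so the pair was taken as a block in an alternative fit, given beside the chamber comparisons. Same-numbered libraries of different ages had correlations of -0.073 to 0.18 and were not paired. No pair of libraries was identical (root mean square log2 difference 0.17 to 0.728 over 136 pairs). Other alternatives were a pseudocount of 0.1 RPKM, no filter, a mean of at least 1 RPKM, upper-quartile scaling, each library left out, and, chosen after seeing the data, the 10 libraries with NM_008710 at 1 RPKM or more alone or that status as a covariate. Windows around gene starts came from RefSeq (GRCm38.p6).

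The channel genes, the partner and marker lists and the rule for naming genes (known cardiac current genes, and the called members with the largest changes in each comparison) were chosen with earlier results of these data known. Genes outside that rule that are named were chosen after their values were seen. Some genes are not reported here, and the counts over all members include them.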

Additional observations from a re-analysis of the deposited data

Results flagged for a closer look

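With the chamber pair as a block, the change of Cacng6 for P7 against P0 differed between the chambers by 0.97 on the log2 scale, RV minus LV (limma, adjusted p = 0.0316). Without the block the difference was 1.04 (adjusted p = 0.516). Only 2 pairs stood at P7, with RV minus LV values of 0.15 for replicate 1 and 1.02 for replicate 2. The P0 pairs gave -0.42, -0.46 and -0.29. Cacng6 stood at 4.87 and 4.69 RPKM in RV P7 and 7.05, 4.64 and 5.03 RPKM in RV P0, and at 4.31, 1.81 and 2.35 RPKM in LV P7 and 9.74, 6.74 and 6.38 RPKM in LV P0. The LV P7 values in which NM_008710 was under 1 RPKM were the lower ones (replicates 2 and 3), while RV P7 replicate 2, also under 1 RPKM, stood near RV P7 replicate 1.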

How the results depend on the processing

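Without the filter on the level, 37 members were called for P7 against P0 in the RV and 44 in the LV, of 119 tested, and 1 between the chambers averaged over ages. With the replicate block of the RV and LV pair, 2 members were called at P3, 2 at P7, 4 averaged over ages and 1 for the difference between chambers. Upper-quartile scaling called 2 members between the chambers at P7 and turned the log2 change of Kcnh2 in the LV to 0.0436 for P7 against P0. Among the 10 libraries with NM_008710, 16 members were called for P7 against P0 in the LV, 10 in the RV and 5 in the LV for P3 against P0, 1 in the RV and 4 in the LV for P7 against P3, and 0 between the chambers averaged over ages; with its status as a covariate, 1 was called between the chambers at P7. The cause was not tested.

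Leaving out 1 library at a time gave 16 to 22 members called in the RV and 22 to 26 in the LV for P7 against P0, 14 to 20 in the RV and 10 to 16 in the LV for P3 against P0, and 4 to 13 in the RV and 12 to 18 in the LV for P7 against P3. Between the chambers it gave 0 to 1 at P0, 0 to 0 at P3, 0 to 1 at P7, 1 to 2 averaged over ages and 0 to 0 for the difference between chambers. Of 108 called member changes, 75 kept call and direction whichever library was left out and 33 lost the call without at least 1. The replicate block across ages, where numbers did not pair the libraries, gave 23 members in the RV and 27 in the LV for P7 against P0 and changed no other count by over 1.5 times. Depth limits the members below the filter. The counts of this section compare settings, and where no share of all entries is given they do not set channel genes apart.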
